A study of Mus musculus with 20 samples.

Results

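The canonical histone genes are the 70 genes of the mouse whose mm9-era symbols start with Hist1h, Hist2h, Hist3h or Hist4h. They were taken by symbol from the annotation of the files' build, and all 70 of the 70 annotated had a count in at least 1 of 20 fetal livers, of 26830 genes with a count in all. By class they are 6 H1, 20 H2A, 19 H2B, 12 H3 and 13 H4 genes. By symbol, 56 are Hist1 genes on chromosome 13, 10 Hist2 genes on chromosome 3, 3 Hist3 genes on chromosome 11 and 1, Hist4h4, is on chromosome 6. Of the Hist1 genes 55 lie in a single cluster, and Hist1h2al lies apart at mm9 chr13:51298057-51298434. Polyadenylated RNA was sequenced from the right liver lobe of male CD-1 IGS mouse fetuses at embryonic day 18.5. One group came from dams under maternal nutrient restriction (MNR) and the other from control dams (CON), with 5 litters and 2 littermates per litter in each group, 20 fetuses in all. The sources used here do not give the degree or timing of the restriction. Litters are named by group and letter, and a shared letter does not mean a shared dam.

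Canonical histones package newly copied DNA, and their genes are transcribed mainly while a cell replicates its genome. H2A, H2B, H3 and H4 form the nucleosome core, and H1 binds the linker DNA between cores. Their mRNAs are unusual in that most end in a conserved stem-loop, bound by the protein SLBP, in place of a poly(A) tail, and they are degraded when replication ends. Some of these genes also give a longer transcript that runs past the stem-loop to an ordinary poly(A) signal, which is known mostly from cells that have left the cell cycle. Late-gestation liver holds hepatocytes beside the dividing blood cells of fetal haematopoiesis. Libraries of polyadenylated RNA such as these count tailed molecules, so the values below are levels in that fraction and not total histone mRNA.

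The stem-loops are shown because they mark the standard 3′ end of these genes. The histone stem-loop was found within 200 bases past the stop codon in 63 of the 67 members with an annotated coding region (94.0%), against 7 of 22313 other protein-coding genes (0.031%), among them the variant H2afx. It starts 21 to 58 bases past the stop codon, with a median of 30. The sequences below, from the mm9 genome, run 5′ to 3′ on the gene's strand with the stem-loop in capitals.
Hist1h1c: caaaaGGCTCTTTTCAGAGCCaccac
Hist1h2bc: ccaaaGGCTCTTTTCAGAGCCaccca
Hist2h3c1: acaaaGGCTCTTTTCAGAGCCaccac
Hist3h2a: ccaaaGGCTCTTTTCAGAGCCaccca
Hist1h4n: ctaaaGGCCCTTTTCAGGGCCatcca
Hist1h4i: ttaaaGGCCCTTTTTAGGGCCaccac
The first 4 share the 16 bases that 39 members carry, Hist1h4n has a form found in 8 members, and 8 distinct forms occur in all. No match was found in Hist1h2al, Hist1h2an, Hist2h2bb and Hist2h2be, and with a single mismatch allowed Hist1h2an also matched. The annotated coding region of Hist2h2bb runs over 2 exons, from 96073675 to 96081804, so the end of its first exon was not searched. Hist1h2aj, Hist2h3c2 and Hist3h2bb-ps have no annotated coding region and were not searched.

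The annotation of some members runs past the stem-loop, but not always to a poly(A) signal. Hist1h1d and Hist1h2ac, for example, run 3050 and 2010 bases past it with no signal near the end. In 26 of the 63 members with a stem-loop the annotated gene runs more than 50 bases past the stem-loop. In 22 it ends within 50 bases, and in 15 the annotation stops before the stem-loop ends. A poly(A) signal (AATAAA or ATTAAA on the gene's strand) lies in the last 50 bases of 17 of the 70 members (24.3%), against 65.9% of 22687 other protein-coding genes. In the genome the annotated end of Hist1h1c lies 839 bases past its stem-loop, that of Hist1h2bc 7826 bases, that of Hist2h3c1 1166, that of Hist3h2a 1487 and that of Hist1h4i 150. The distance for Hist1h2bc includes an intron, since its exons total 736 bases. The signals of the 4 abundant members that end with AATAAA are shown in capitals, again 5′ to 3′ from mm9.
Hist1h1c: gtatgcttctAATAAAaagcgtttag
Hist1h2bc: atgtatatatAATAAAtgtcatgtaa
Hist2h2be: tattattattAATAAAgttaccgatt
Hist2h3c1: ttttaatcccAATAAAaatttaacac
These signals lie 19, 21, 16 and 16 bases before the annotated ends, in the order listed. Hist1h4i and Hist3h2a carry ATTAAA.

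Histone genes gave 137423 counts over the 20 livers, 5445 to 13068 in an MNR fetus and 3859 to 10701 in a CON fetus. H2A genes held 46.3% of them, H1 24.4%, H2B 19.7%, H3 6.8% and H4 2.8%. A single gene, Hist1h1c, held 22.0%. Levels were compared between genes as CPM per kb, that is counts per 1000000 library counts per kilobase of exon. On that scale 22 of the 70 members lay above 3.76, the median of all 17573 genes tested. They were 17 of the 20 H2A genes, 2 of 19 H2B genes (Hist1h2bc and Hist2h2be), and a single gene in each other class, Hist1h1c, Hist2h3c1 and Hist1h4i. The last 3 and both H2B genes are the top members of their classes, and all 5 carry a poly(A) signal near the annotated end. The lowest member of all, Hist1h1t (0.0341 CPM per kb), and the lowest H4 gene, Hist2h4 (0.241), carry a signal too. In H2A none of the 5 leading members carried one. The annotation of its top 2, Hist1h2ap and Hist1h2ao, stops 28 bases before the stem-loop ends, so sequence past it was not searched. The median level was 2.90 CPM per kb for the 17 members with such a signal and 1.44 for the 53 without. It was 12.5 for H2A, 1.85 for H2B, 1.08 for H1, 1.03 for H4 and 0.472 for H3 genes. The medians with and without a signal pool these classes. The H2A genes with a signal, Hist1h2ae, Hist1h2ai and Hist3h2a, stood at 7.6, 6.6 and 3.3, below their class median on this scale. Their annotated exons span 704, 1041 and 1990 bases, against 519 for Hist1h2ap and for Hist1h2ao, and longer exons lower a value per kb. Without division by length they averaged 5.37, 6.83 and 6.49 CPM. These are levels and not tests, and 35 members lay under 1 CPM.

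**Figure D1:**
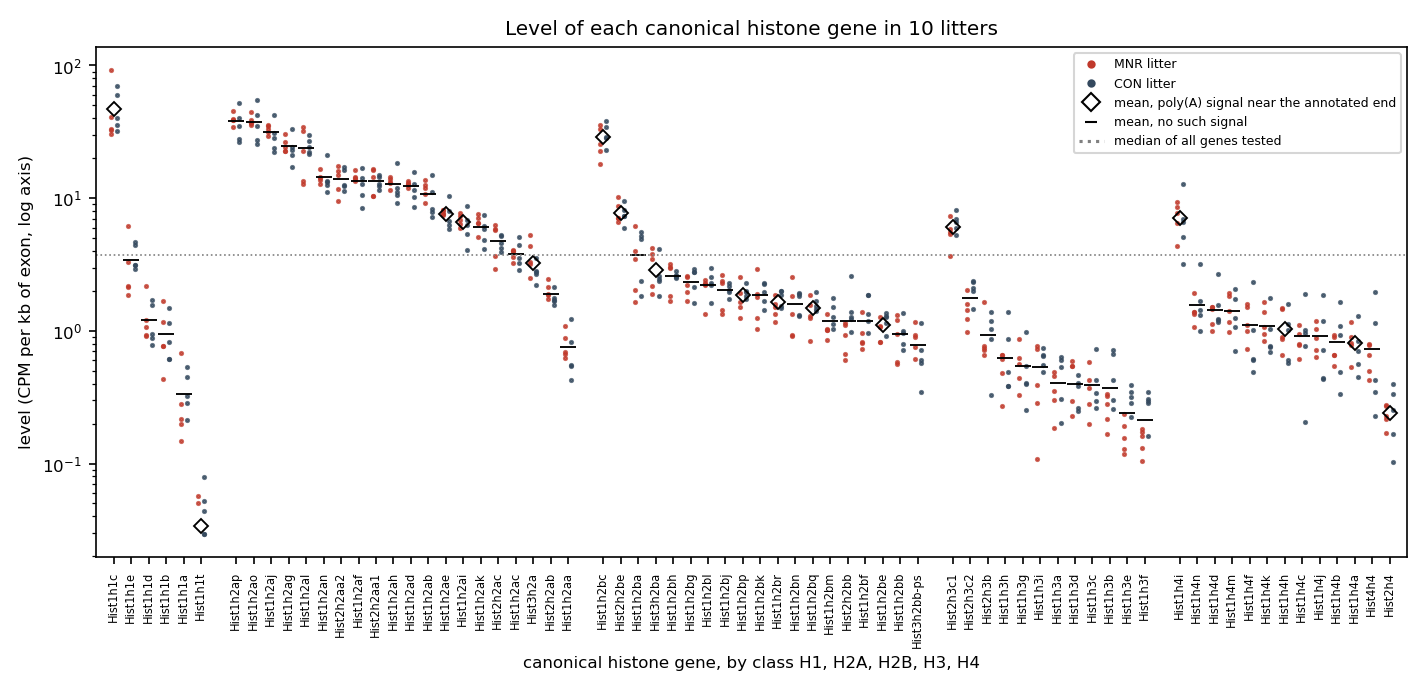
Level of each of the 70 genes in CPM per kb of exon on a log axis, with a red point for each MNR litter, a blue point for each CON litter and a black mark for the mean (diamond: poly(A) signal near the annotated end). Litters at 0 (3 MNR litters for Hist1h1t) cannot be drawn; Hist1h1c at 46.7 CPM per kb and most H2A genes lie above the dotted median of all genes, 3.76.

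Sequence shared between members limits what a single gene's count means. The sources used here do not say how a read with several matching genes was counted. A median of 46.4% of the 50-base windows in a member's exons also occurred in another gene, and 30 members shared over 50% of their windows. Hist1h2ao and Hist1h2ap were identical in every window, and their total counts were 8176 and 8200, with 46.6% to 51.8% of the pair's counts on Hist1h2ao in any fetus. The identical pair Hist2h2aa1 and Hist2h2aa2 had 3194 and 3303 counts, and Hist1h2bq and Hist1h2br 1374 and 1509. Values of single H2A genes, and of H2B, H3 and H4 genes with high sharing, are therefore uncertain. In contrast 10 members shared at most 10% of their windows, among them Hist1h1c (8.54%), Hist1h1d (4.32%), Hist2h2be and Hist2h2bb (no window).

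No canonical histone gene passed the threshold between MNR and CON livers. Of the 62 members with enough counts to test, 0 had a Benjamini-Hochberg adjusted p under 0.05 in edgeR's quasi-likelihood test on litters, and 0 did in DESeq2. Over all 17573 genes edgeR called 0.415% higher in MNR litters and 0.25% lower, and DESeq2 called 3.56% higher and 2.76% lower. The 117 calls were 62.4% higher ones, and the 178 calls under upper-quartile scaling 38.2%. Without adjustment, 1 member was higher (Hist3h2a) and 3 were lower (Hist2h2bb, Hist1h2bf and Hist2h3c2) at p under 0.05, against 9.95% of all genes higher and 9.69% lower. No member had every MNR litter above every CON litter or every MNR litter below, against 2.28% and 2.23% of all genes. The members' log2 fold changes (MNR over CON) ran from -0.75 to 0.41, with 29 positive and 33 negative and a median of -0.01, beside a median of -0.003 over all genes. The 95% interval, which is not adjusted for the number of genes, reached a median of 0.48 to each side. Differences under about that size were mostly not detectable at this depth and number of litters. Larger ones could also go uncalled after adjustment, as for Hist2h2bb (-0.75, edgeR adjusted p = 0.157) and Hist1h2bf (-0.60, edgeR adjusted p = 0.200). The 8 members not tested, Hist1h1a, Hist1h1t, Hist1h3a, Hist1h3b, Hist1h3c, Hist1h3e, Hist1h3f and Hist4h4, averaged at most 0.249 CPM. Among the 10 members with little shared sequence 7 were tested, 4 of them with a positive log2 fold change, and their median was 0.03.

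**Figure D2:**
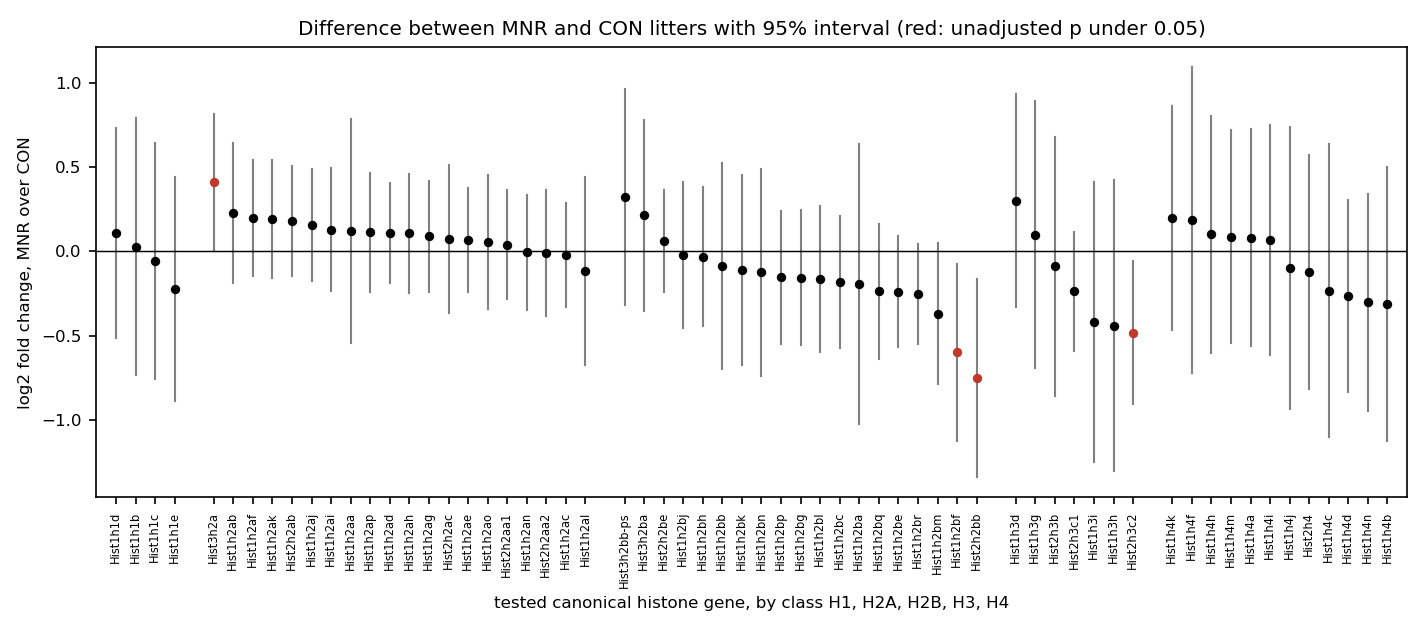
Log2 fold change (MNR over CON litters) of each of the 62 tested genes, ordered within its class, with the 95% interval from edgeR as a grey line. In red are the 4 genes with an unadjusted p under 0.05; the intervals of the other 58 span 0.

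Summed over all members, the level was 330 ± 68.7 CPM in MNR litters and 332 ± 60.0 CPM in CON litters (SD, n = 5 each). It was 271, 334, 275, 441 and 328 CPM in MNR litters A to E, against 344, 280, 261, 378 and 398 CPM in CON litters A to E. The groups overlapped over almost their whole range, with the highest litter, D, in MNR and the lowest, C, in CON. In bulk tissue a smaller share of cells of a type and less RNA per cell cannot be told apart.

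Among the linker histones, Hist1h1c (ENSMUSG00000036181, mm9 chr13:23830676-23832235, plus strand), which encodes H1.2, was the most abundant member per length, at 46.7 CPM per kb. Its level was 47.3, 63.9, 50.5, 144 and 51.9 CPM in MNR litters A to E, against 93.7, 55.9, 49.97, 62.8 and 109 CPM in CON litters A to E. MNR litter D was the highest of the 10, CON litters E and A came next, and the other 7 lay between 47.3 and 63.9 CPM. The log2 fold change was -0.06 (SE 0.32, 95% interval -0.76 to 0.65), and edgeR's adjusted p was 0.943. Without MNR litter D it was -0.48, and without CON litter E 0.12, so single litters set its sign.

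The other H1 genes were far lower. Hist1h1d, encoding H1.3, had 8.37 CPM in MNR litter D against 3.5 to 4.58 CPM in the other MNR litters, and 2.99 to 6.53 CPM in CON litters. Hist1h1e, encoding H1.4, had 4.59 CPM in MNR litter D against 1.39 to 2.46 CPM in the other MNR litters, and 2.19 to 3.49 CPM in CON litters. All 4 tested H1 genes (also Hist1h1b) were highest in MNR litter D, and 3 of them were lowest in MNR litter A. Their log2 fold changes were 0.11 for Hist1h1d (SE 0.28, edgeR adjusted p = 0.869) and -0.23 for Hist1h1e (SE 0.30, edgeR adjusted p = 0.725). The H1 sum was 79.6 ± 44.7 CPM in MNR and 82.5 ± 27.8 CPM in CON litters (SD, n = 5 each), a log2 ratio of the means of -0.05. Without MNR litter D that ratio was -0.46. Hist1h1b, Hist1h1c and Hist1h1d share at most 10% of their windows with other genes, and Hist1h1e shares 22.2%. Over the other litters the order differed: CON litter E was second highest for Hist1h1c and for Hist1h1d, but had 0.453 CPM of Hist1h1b, above only MNR litter A at 0.323 CPM. With Hist1h1c left out the H1 sum was still highest in MNR litter D, 14.7 CPM, against 5.36 to 7.57 CPM in the other MNR litters and 6.23 to 10.8 CPM in CON litters.

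For Hist1h1c both littermates of MNR litter D were high. Hist1h1c stood at 149 and 135 CPM in the fetuses of MNR litter D, against 37.9 to 76.3 CPM in the other 8 MNR fetuses and 37.0 to 110 CPM in the 10 CON fetuses. In CON litter E both fetuses were near 110 CPM (110 and 107), whereas in CON litter A they were 67.0 and 110 CPM. With Hist1h1c left out, the H1 sum was 16.3 CPM in fetus 1 and 12.0 CPM in fetus 2 of MNR litter D. Fetus 2 of CON litter A had 13.1 CPM. Hist1h1d had 9.41 and 6.60 CPM in fetuses 1 and 2 of MNR litter D, against 7.13 CPM in fetus 2 of CON litter A. MNR litter D did not stand out in the same way for every class. It had the highest H1, H2B and all-member sums of the 10 litters, but CON litter D had the highest H2A and H4 sums.

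**Figure D3:**
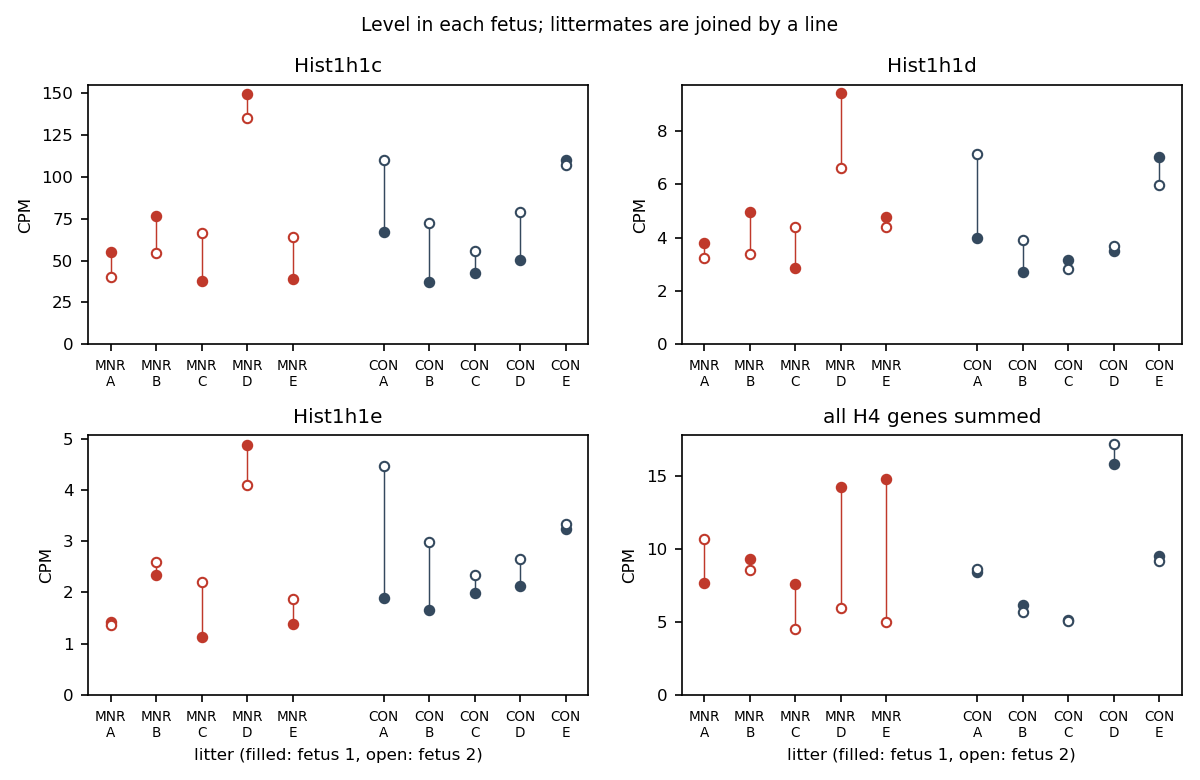
Level in CPM of Hist1h1c, Hist1h1d, Hist1h1e and the summed H4 genes in each fetus (filled: fetus 1, open: fetus 2), with MNR litters A to E left of CON litters A to E and littermates joined. Both fetuses of MNR litter D are the highest for Hist1h1c (149 and 135 CPM), and both fetuses of CON litter D for H4 (15.9 and 17.2 CPM).

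The promoters of the most abundant H1 gene and of Hist1h1e are shown as examples of the H1 class. They are 300-base windows from RefSeq on GRCm38.p6, where the genes are named H1f2 and H1f4, at chr13:23738557-23738856 (plus strand) and chr13:23622509-23622808 (minus strand). Capitals mark matches on either strand to AAACACA, the H1 box, to CCAAT and to TATAAA.
Hist1h1c: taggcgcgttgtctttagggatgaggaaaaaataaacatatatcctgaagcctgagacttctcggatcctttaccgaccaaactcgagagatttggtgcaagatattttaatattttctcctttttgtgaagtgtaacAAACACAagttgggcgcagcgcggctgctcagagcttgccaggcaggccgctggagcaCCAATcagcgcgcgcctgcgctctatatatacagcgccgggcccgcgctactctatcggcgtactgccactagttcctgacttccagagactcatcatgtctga
Hist1h1e: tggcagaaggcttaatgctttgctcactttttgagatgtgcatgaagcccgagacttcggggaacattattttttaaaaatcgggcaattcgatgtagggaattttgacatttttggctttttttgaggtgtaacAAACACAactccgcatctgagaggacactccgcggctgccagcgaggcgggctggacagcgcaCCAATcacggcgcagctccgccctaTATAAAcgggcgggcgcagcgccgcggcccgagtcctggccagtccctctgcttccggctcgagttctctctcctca
Of the 70 members 60 matched a single RefSeq promoter. AAACACA was present in 5 of 6 H1 promoters, 2 of 17 H2A, 2 of 15 H2B, 0 of 10 H3 and 0 of 12 H4 promoters, and in 7.17% of 32791 other promoters of the same length. CCAAT was in 51 of the 60 members' promoters (85.0%) against 37.3% of the others, but in 3 of 12 for H4. The octamer ATTTGCAT, known from H2B promoters, was in 6 of 15 H2B and 7 of 17 H2A promoters and in 0 of the other members' windows, against 1.70% of other promoters. TATAAA was in 58.3% of members' promoters and 13.5% of others. Matches of different motifs overlapped in 0 of the 60 promoters. A link between these motifs and the levels in any litter was not tested.

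H2A genes made up the largest share of histone counts. The SD over litters was smaller in MNR than in CON for 14 of the 20 genes and larger for the others, such as Hist1h2al, which ranged from 4.87 to 13.1 CPM in MNR and from 8.10 to 11.3 CPM in CON litters. The share of all genes with a smaller SD in MNR was not computed. Outside the histone members it was also smaller for Slbp, Npat, H3f3a, H2afx, H2afz, Pcna and Mki67, and larger for H1f0 and H3f3b. Hist1h2ap (mm9 chr13:21924926-21925444, minus strand) was the highest, at 37.9 CPM per kb. It had 20.1, 23.6, 17.9, 20.6 and 20.1 CPM in MNR litters A to E, against 18.2, 13.8, 14.6, 27.0 and 20.8 CPM in CON litters A to E. The CON litters spanned the wider range and held both the highest (D) and the lowest (B) values. Hist1h2ao, its identical copy, averaged 19.97 ± 1.81 CPM in MNR and 19.2 ± 6.32 CPM in CON litters (SD, n = 5 each). Hist1h2aj, annotated as a pseudogene and sharing 92.5% of its windows, averaged 12.8 ± 1.02 CPM in MNR and 11.5 ± 3.12 CPM in CON litters.

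In the H2A class 16 of 20 log2 fold changes were positive, with a median of 0.11, and 0 genes were called. The summed level was 158 ± 16.3 CPM in MNR and 148 ± 31.3 CPM in CON litters (SD, n = 5 each). CON litter B was the lowest of the 10 for 14 of the 20 genes and CON litter D the highest for 13. Because the copies share sequence, the 20 genes may not be separate measurements. Hist1h2ab, Hist1h2af and Hist1h2ak had log2 fold changes of 0.23, 0.20 and 0.19, each with an SE of 0.16 to 0.19 and an edgeR adjusted p of 0.524 to 0.546.

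Hist3h2a, the H2A gene of the small chromosome 11 cluster (ENSMUSG00000078851, mm9 chr11:58768187-58770176, plus strand), had the largest positive value of the 62. It had 6.60, 4.98, 6.31, 10.4 and 8.74 CPM in MNR litters A to E, against 5.48, 5.34, 4.42, 7.01 and 5.63 CPM in CON litters A to E. MNR litters D and E lay above all CON litters, and MNR litter B lay below 4 of the 5 CON litters. The log2 fold change was 0.41 (SE 0.19, 95% interval 0.002 to 0.82), with an unadjusted p of 0.0488 and an edgeR adjusted p of 0.253. It was 0.25 without MNR litter D. The annotated exons of Hist3h2a share 708 bases on the same strand with Trim17, whose log2 fold change was 0.45 (SE 0.17, edgeR adjusted p = 0.187; named after its value was seen), so the counts of these genes cannot be separated there.

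Among H2B genes Hist1h2bc (ENSMUSG00000018102, mm9 chr13:23776068-23784357, plus strand) led at 28.8 CPM per kb. It had 13.2, 16.8, 18.9, 24.3 and 26.0 CPM in MNR litters A to E, against 20.97, 21.1, 17.1, 25.3 and 28.1 CPM in CON litters A to E. The 2 lowest litters were MNR A and B, and the rest of the groups overlapped. The log2 fold change was -0.18 (SE 0.18, edgeR adjusted p = 0.615). Hist2h2be (mm9 chr3:96025044-96027661), with no stem-loop match and no shared window, had 18.6, 22.9, 17.2, 26.8 and 18.5 CPM in MNR litters A to E, against 19.1, 21.2, 15.6, 19.2 and 24.7 CPM in CON litters A to E. Its log2 fold change was 0.06 (SE 0.14, 95% interval -0.24 to 0.37, edgeR adjusted p = 0.844).

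Of the 19 tested H2B genes 3 had positive and 16 negative log2 fold changes, with a median of -0.16, and 0 were called. As in H2A, copies that share sequence may not be separate measurements. Summed H2B was 62.8 ± 11.5 CPM in MNR and 67.9 ± 9.46 CPM in CON litters (SD, n = 5 each). Hist2h2bb (mm9 chr3:96073644-96082924), where the search did not reach the end of the first exon and found no stem-loop, had 0.918, 1.68, 1.01, 1.72 and 1.41 CPM in MNR litters A to E, against 3.93, 1.93, 2.09, 1.87 and 1.49 CPM in CON litters A to E. CON litter A stood above the rest, and 3 MNR litters (A, C and E) lay below all CON litters. Its log2 fold change, -0.75 (SE 0.27, edgeR adjusted p = 0.157), was the lowest of all members, and without CON litter A it was -0.46. Hist1h2bf averaged 0.436 ± 0.122 CPM in MNR and 0.664 ± 0.183 CPM in CON litters, and edgeR gave it a log2 fold change of -0.60 with an SE of 0.24 and an adjusted p of 0.200. Hist1h2bm and Hist1h2br had log2 fold changes of -0.37 and -0.25, with edgeR adjusted p-values of 0.314 and 0.337. The exons of Hist1h2bm overlap those of Hist1h2aj by 20 bases on the opposite strand, and the sources used here do not say whether strand was used in counting. Hist3h2bb-ps, a pseudogene, averaged 0.407 ± 0.0972 CPM in MNR and 0.316 ± 0.138 CPM in CON litters.

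H3 genes were low except Hist2h3c1 (ENSMUSG00000070392, mm9 chr3:96049477-96052431, plus strand), at 6.08 CPM per kb. It had 10.9, 16.5, 15.8, 21.8 and 17.4 CPM in MNR litters A to E, against 19.6, 20.4, 17.7, 15.6 and 23.9 CPM in CON litters A to E. MNR litter A was the lowest of the 10, and the remaining litters overlapped. The log2 fold change was -0.24 (SE 0.16, edgeR adjusted p = 0.452). Its annotated exons share 562 bases on the same strand with the H2A gene Hist2h2aa1, so these counts are uncertain. A transcript of 2955 bases held 97.54% of them, and one of 546 bases around the coding region 2.46%. Of the windows of Hist1h2al, another H2A gene, 69.6% also occur in Hist2h3c1. How much of its count, and so of the H3 sum and share, comes from H2A sequence was not tested. Hist2h3c2, annotated as a pseudogene and sharing 64.1% of its windows, had 0.993, 1.24, 1.61, 2.06 and 1.46 CPM in MNR litters A to E, against 2.39, 2.01, 2.12, 1.49 and 2.35 CPM in CON litters A to E. MNR litters C and D lay within the CON range and the other 3 below it, and the log2 fold change was -0.48 (SE 0.19, edgeR adjusted p = 0.203). Hist1h3d averaged 0.549 ± 0.204 CPM in MNR and 0.441 ± 0.116 CPM in CON litters. In the class 7 of 12 genes were tested, with 2 positive and 5 negative log2 fold changes, a median of -0.24 and 0 called. The H3 sum was 20.6 ± 4.74 CPM in MNR and 24.7 ± 2.94 CPM in CON litters (SD, n = 5 each).

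Hist1h4i (ENSMUSG00000060639, mm9 chr13:22132685-22133221, minus strand) led the H4 genes at 7.11 CPM per kb. It had 4.17, 3.49, 2.34, 5.0 and 4.61 CPM in MNR litters A to E, against 3.57, 2.74, 1.72, 6.81 and 3.76 CPM in CON litters A to E. CON litter D was the highest and CON litter C the lowest. The log2 fold change was 0.07 (SE 0.31, edgeR adjusted p = 0.929). Hist1h4m and Hist1h4n, which share 83.2% of the windows of Hist1h4n, averaged 0.589 ± 0.164 and 0.611 ± 0.132 CPM in MNR litters, against 0.548 ± 0.218 and 0.741 ± 0.367 CPM in CON litters. Of 12 tested H4 genes 6 had positive and 6 negative log2 fold changes, with a median of -0.02 and 0 called.

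Litter-to-litter differences were wide for H4. CON litter D was the highest of the 10 for 11 of the 12 tested H4 genes. The H4 sum was 9.18, 8.87, 6.31, 11.3 and 9.76 CPM in MNR litters A to E, against 8.57, 5.91, 5.10, 16.5 and 9.38 CPM in CON litters A to E. Without CON litter D the log2 ratio of the means was 0.33, against -0.003 with it. The 2 fetuses of CON litter D agreed, at 15.9 and 17.2 CPM. The littermates of MNR litters D and E did not: fetus 1 had 14.3 and 14.8 CPM, and fetus 2 had 5.96 and 5.005 CPM. Hist1h4i alone had 7.71 CPM in fetus 1 and 1.67 CPM in fetus 2 of MNR litter E, a ratio of 4.62, against a median ratio of 1.27 between littermates over the 10 litters.

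**Figure D4:**
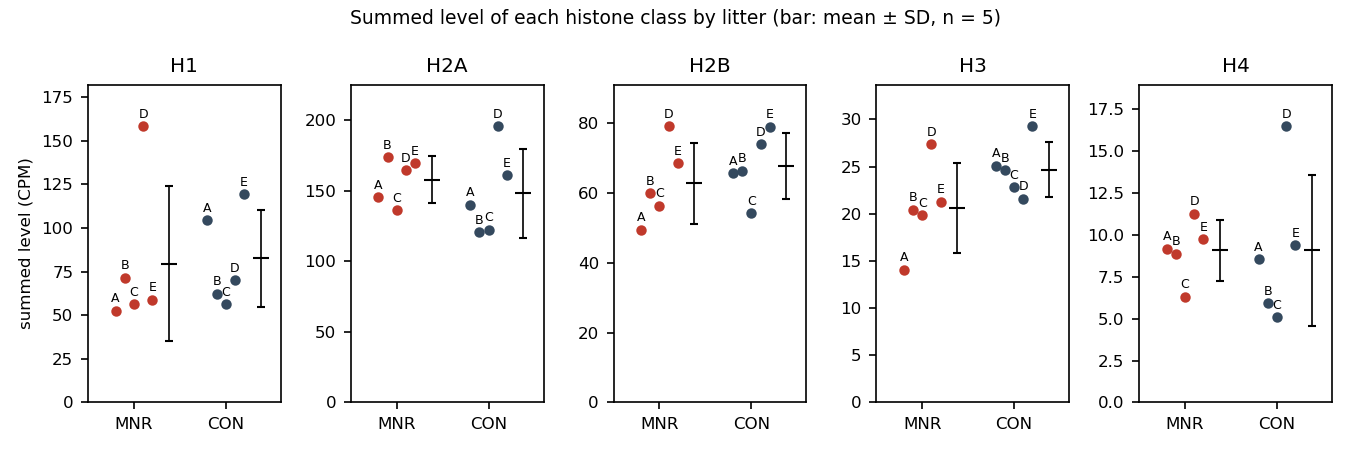
Summed level in CPM of the H1, H2A, H2B, H3 and H4 genes in each litter, MNR left of CON, with letters naming litters and bars giving the mean ± SD of 5 litters. MNR litter D stands apart for H1 (158 CPM) and CON litter D for H4 (16.5 CPM), while the groups overlap in all 5 classes.

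Across the 62 tested members the highest litter exceeded the lowest by a median of 2.38 times (range 1.56 to 9.37). CON litter D was the highest for 30 members and MNR litter D for 13, while CON litter B was the lowest for 22 and MNR litter A for 16. Markers of cell division and of blood cells also differed between litters. In CON litter D the summed level of 33 replication genes (2001 CPM), of 18 G2 and mitosis genes (2072 CPM) and of 12 erythroid markers (35310 CPM) was the highest of the 10 litters. MNR litter D had 1505, 1638 and 29550 CPM for these lists, and CON litter B 1399, 1481 and 22360 CPM. The part of these cell types in the histone levels was not tested.

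Genes that regulate or accompany canonical histone expression were described from lists of fixed symbols, and edgeR called 0 genes in each of them. Slbp, the stem-loop binding protein, averaged 71.9 ± 6.08 CPM in MNR and 73.2 ± 12.6 CPM in CON litters (log2 fold change -0.03, edgeR adjusted p = 0.917). Npat, the activator of histone gene transcription at replication, averaged 21.6 ± 1.26 CPM in MNR and 20.4 ± 1.48 CPM in CON litters (log2 fold change 0.08, edgeR adjusted p = 0.523). The list of 3′ processing and decay factors had 20 tested genes, 9 positive and 11 negative, with a median of -0.01. In that list 2 were higher and 3 lower at an unadjusted p under 0.05, against 9.95% and 9.69% of all genes. DESeq2 called 1 higher and 3 lower, against 3.56% and 2.76% of all genes. The 10 factors of histone gene transcription had a median of 0.03, with 0 at an unadjusted p under 0.05 and 0 called by DESeq2. The 17 chaperones had a median of -0.02, with 1 higher and 2 lower at an unadjusted p under 0.05 and 1 called lower by DESeq2.

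The 5 genes named here, of 11 on the list of replication-independent variants, stood at higher levels per length than most members. One of them, H2afx, carries a histone stem-loop match like the canonical genes, so the name of the list may not hold for it. H1f0, encoding H1.0, stood at 86.8 CPM per kb, H3f3b at 81.9 and H3f3a at 61.7 (both encoding H3.3), H2afz at 58.6 and H2afx at 44.2, beside 46.7 for Hist1h1c. H1f0 averaged 46.4 ± 9.41 CPM in MNR and 46.3 ± 4.07 CPM in CON litters (log2 fold change 0.003, edgeR adjusted p = 0.992), and it too was highest in MNR litter D, at 62.0 CPM. H2afz averaged 99.0 ± 3.51 CPM in MNR and 109 ± 11.9 CPM in CON litters (log2 fold change -0.14, edgeR adjusted p = 0.318). Of the 11 variants 4 had positive and 7 negative log2 fold changes, with a median of -0.06, 0 at an unadjusted p under 0.05 and 0 called by DESeq2. H3f3a, H3f3b and H2afx had log2 fold changes of -0.09, 0.05 and -0.09.

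Most replication and division genes had negative log2 fold changes, and edgeR called 0 of them. Of 33 replication genes 27 had negative log2 fold changes (median -0.06), 2 of them at an unadjusted p under 0.05, and of 18 G2 and mitosis genes 16 were negative (median -0.13), 1 at that level. DESeq2 called 0 in both. Pcna, the replication clamp, averaged 122 ± 5.28 CPM in MNR and 138 ± 24.2 CPM in CON litters (log2 fold change -0.17, edgeR adjusted p = 0.399), and Mki67, a marker of cycling cells, 655 ± 40.5 CPM in MNR and 696 ± 117 CPM in CON litters (log2 fold change -0.09, edgeR adjusted p = 0.683). The replication sums were 1505 to 1667 CPM in MNR and 1399 to 2001 CPM in CON litters.

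Other RNAs listed as lacking a regular tail are given beside the histone genes. Of 15 such genes listed 4 had counts and 3 were tested, and their sum was 333 to 435 CPM in MNR and 293 to 452 CPM in CON litters. Malat1 averaged 206 ± 36.4 CPM in MNR and 237 ± 59.5 CPM in CON litters, and Neat1 179 ± 17.4 CPM in MNR and 160 ± 19.4 CPM in CON litters (both named after their values were seen). These 2 genes made up nearly all of the sum. The third tested gene, Scarna2, averaged 0.445 CPM in MNR and 0.517 CPM in CON litters (also named after its values were seen). The sum therefore does not show how much untailed RNA the libraries retained, which was not tested. The list's lowest litter was CON D, the litter with the highest H4 sum.

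All 10 hepatocyte markers were present, summing to 121300 to 142500 CPM in MNR and 128200 to 148700 CPM in CON litters. Erythroid markers summed to 23100 to 30910 CPM in MNR and 22360 to 35310 CPM in CON litters, with 11 of 12 negative log2 fold changes. Of the 7 B cell precursor markers 4 had negative values at an unadjusted p under 0.05 (32.3 to 46.4 CPM in MNR, 38.4 to 71.7 CPM in CON litters), as were 3 of 6 stellate cell markers (341 to 461 CPM in MNR, 360.5 to 525.9 CPM in CON litters). All 8 neutrophil and all 6 megakaryocyte markers had positive values, with medians of 0.26 and 0.25, and 5 in each list had an unadjusted p under 0.05. Macrophage, endothelial and blood stem cell lists had medians of 0.12, -0.04 and 0.08, with 1, 0 and 2 genes higher at that level. In edgeR 0 genes of these lists were called, with 1 hepatocyte marker lower at an unadjusted p under 0.05. DESeq2 called 1 hepatocyte and 1 stellate marker lower and 1 megakaryocyte, 1 neutrophil and 2 blood stem cell markers higher, against 3.56% of all genes higher and 2.76% lower.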

How the data were processed

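Values were whole-number counts per transcript, deposited by the authors as 1 table per fetus and not normalised. Per the labels' protocols, a TRIzol and column extraction with DNase was followed by a directional library kit. The submitters' processing notes name mm9 and the tools edgeR, DESeq2, Bowtie2 and FastQC. The sources used here do not give the counting tool, the versions, the use of strand or the treatment of multiply matching reads. A deposited gene table was not used, since its values equalled the summed counts for only 8.52% to 9.66% of genes.

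Transcript counts were summed per gene with GENCODE M1 on the same build (NCBIM37). Counts of a fetus totalled 16703824 to 28016953 in MNR and 14925778 to 27848100 in CON, and 0.0788% to 0.154% matched no gene and were left out. No pair of fetuses of a group agreed within sampling noise, the chi-square per degree of freedom being 9.78 to 79.1 for the 90 pairs.

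The dam received the diet, so littermates were summed and 5 MNR litters were tested against 5 CON litters with edgeR 4.0.16 (R 4.3.3): filterByExpr with a minimum count of 10, TMM scaling and a two-sided quasi-likelihood test, p-values being adjusted by Benjamini-Hochberg over 17573 genes and called under 0.05. CPM values use TMM-scaled library sizes, those of single fetuses over the 20 fetuses, and CPM per kb divides by the union of annotated exons. The procedure was tested on simulated data. Alternatives were each fetus as a library, a single fetus per litter, DESeq2 1.42.0, 3 other scalings, no filter, a minimum count of 50, the litter letter as a block and leaving out each litter. Litter letters did not pair the groups, since they name different dams.

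The text names members past the threshold, the 5 highest per length, the 3 highest of each class by CPM, the 5 of smallest p in each direction, and Hist1h1c, Hist1h2bc, Hist1h1e, Hist1h4i, Hist2h2be and Hist3h2a, with 9 other genes whatever their result. Members, lists and named genes were chosen with earlier results of these data known. Intervals cover the spread between litters. Stem-loops, poly(A) signals and shared windows of 50 bases were read from NCBIM37, and promoters from RefSeq on GRCm38.p6. No protein sequences were used here.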

Additional observations from a re-analysis of the deposited data

Results flagged for a closer look

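Values of 5 litters were examined in 62 groups for a litter far from the other 4, by the gap to its nearest neighbour over the whole range (critical value 0.71), and 5 stood out. By chance about 1 group in 20 does. In MNR litter D, Hist1h1c stood at 144 CPM, against 47.3 to 63.9 CPM in the other MNR litters, and Hist1h1d at 8.37 CPM, against 3.5 to 4.58 CPM. The sum of the H1 genes in that litter was 158 CPM, against 52.6 to 71.4 CPM, and that of the H1 genes without Hist1h1c 14.7 CPM, against 5.36 to 7.57 CPM. These are not independent, since Hist1h1c makes up most of the H1 sum. In CON litter A, Hist2h2bb stood at 3.93 CPM, against 1.49 to 2.09 CPM in the other CON litters, with 2.47 and 4.82 CPM in its 2 fetuses.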

How the results depend on the processing

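The count of called histone genes was 0 in the main test and also with a single fetus per litter, DESeq2, the other scalings, no filter, a minimum count of 50 and the block. It was 2 with each fetus as a separate library, a fit that treats littermates as independent (Hist2h3c2, log2 fold change -0.48, adjusted p = 0.038, and Hist2h2bb, -0.73, adjusted p = 0.041, in edgeR), and 0 to 1 when a litter was left out. The single call was Hist1h3f, which passed the filter and was called (-1.01, edgeR adjusted p = 0.0385) without CON litter B, and is named after its value was seen. With all litters it averaged 0.215 CPM and did not pass the filter. It had 0.16 CPM in CON litter B, 0.29 to 0.35 CPM in the other CON litters and 0.10 to 0.18 CPM in MNR litters. The step that let it past the filter also removed its lowest CON value, so this call does not count as evidence of a difference. The members' median log2 fold change was -0.11 to 0.08 when a litter was left out. The count over all genes was 117, but 2301 with separate fetuses, 0 with fetus 1 only, 499 with fetus 2 only, 1111 with DESeq2, 178 with upper-quartile scaling and 0 to 843 when a litter was left out. Of the 3′ processing list 4 genes were called by DESeq2 and 1 under upper-quartile scaling, and of the chaperones 1 by DESeq2. The cause of these differences was not tested.

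The litter letter as a replicate block gave 232 calls over all genes and 0 among histone genes, with 1 reversed sign (H1f0, -0.013). Deviations from the group means of litters with the same letter correlated at 0.03 (A), 0.18 (B), 0.15 (C), 0.16 (D) and -0.01 (E). Of these B and D correlated best with their own letter, and A, C and E did not. The letters were not taken as pairs, since they name different dams.

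Of 630 values of named genes under the alternatives 590 kept their direction and side of the threshold, 2 passed the threshold and 38 changed sign, none of them called. With fetus 1 only the log2 fold change was 0.22 for Hist1h1c, -0.07 for Hist1h2ao, 0.048 for Hist1h1e and 0.15 for Hist1h4n. With fetus 2 only it was -0.11 for Hist1h1d, -0.014 for Hist2h2be, -0.42 for Hist1h4i, -0.041 for Hist1h4m and -0.021 for H1f0, and H1f0 was -0.026 with upper-quartile scaling and -0.006 with no scaling. With a litter left out, values ran from -0.48 to 0.12 for Hist1h1c, from -0.19 to 0.28 for Hist1h1d, from -0.052 to 0.25 for Hist1h2ao, from -0.12 to 0.41 for Hist1h4i, from -0.079 to 0.31 for Hist1h4m, from -0.44 to 0.063 for Hist1h4n, from -0.047 to 0.15 for Hist2h2be, from -0.088 to 0.044 for Slbp, from -0.008 to 0.084 for H3f3b and from -0.12 to 0.065 for H1f0. Class sums kept within the spread between litters under every scaling and with a single fetus per litter. Depth limits the 35 members under 1 CPM most, and shared sequence limits 30 members.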

Other observations

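Histone genes known for expression in the male germ line had low but countable levels in fetal liver; they are named here after their values were seen. Hist1h1t, the testis linker histone H1t, had 13 counts in all, in 10 of the 20 fetuses, and with 0.0% of its windows shared with other genes. Hist1h2aa, a testis H2A gene that shares 2.35% of its windows, averaged 0.308 ± 0.0746 CPM in MNR and 0.278 ± 0.124 CPM in CON litters (SD, n = 5 each). Hist1h2ba, its neighbour and a testis H2B gene, stood higher, at 3.72 CPM per kb, and 38.2% of its windows also occur in Hist1h2bj. It had 0.645, 0.784, 1.57, 1.35 and 2.39 CPM in MNR litters A to E, against 0.718, 1.91, 0.917, 2.03 and 2.16 CPM in CON litters A to E. Its littermates differed more than those of Hist1h1c or Hist1h4i, by a median of 2.81 times and up to 6.06 times. Neither gene passed the threshold between groups (edgeR adjusted p = 0.864 for Hist1h2aa and 0.821 for Hist1h2ba).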
